A study of Mus musculus with 9 samples.

Results

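A set of 78 genes was close to silent in sorted control mammary cells and carried reads in every library labelled LATS1/2-KO. Membership required at most 3 reads in each of the 3 control libraries and at least 30 reads in each of the 3 LATS1/2-KO libraries. Of the 55450 genes counted, 93 met both limits. Gene families described by their own symbols (Wnt, Sox, Eya, Col, Serpinb, Tnfsf, Adamts, Krt, Hox, Igf and Sema), together with Casp14 and Msln, were set aside, which left the 78. The members were thus chosen by their raw counts in the control and LATS1/2-KO libraries, so their absence in control and presence in LATS1/2-KO are a description, with no test. The libraries labelled LATS1/2-Sox9-KO took no part in the choice, and the question asked of them was how much of each gene's level they kept.

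All mice were adult and nulliparous and carried lsl-EYFP, a reporter switched on by Cre, and K8CreERT2, a tamoxifen-inducible Cre driven by the keratin 8 promoter of luminal cells. Controls carried nothing else, LATS1/2-KO mice also had floxed LATS1/2 alleles (LATS1/2f/f), and LATS1/2-Sox9-KO mice had floxed Sox9 alleles (Sox9f/f) in addition. Every mouse, controls included, received 5 daily injections of 2 mg tamoxifen, and EYFP+ live cells were sorted by FACS from the mammary glands 7 days after the last dose. RNA-sequencing gave 44167762 to 61967651 gene-assigned reads per library, with 3 libraries per group. The labels do not say whether each library came from a separate mouse, so tests measure the spread between libraries, which may be technical in part. EYFP reports Cre activity at the reporter itself and not at the floxed alleles.

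LATS1 and LATS2 are the kinases of the Hippo pathway that phosphorylate the coactivators YAP and TAZ and keep them out of the nucleus. Without them, YAP and TAZ enter the nucleus and act mostly through TEAD factors, which bind DNA and are often found beside AP-1 sites. Luminal cells line the mammary duct and express keratins 8 and 18, whereas basal cells surround them and express keratins 5 and 14. SOX9 is a transcription factor of luminal progenitors and of many stem cell compartments.

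The targeted genes did not all follow the labels at the level of whole-gene counts. Counts here are normalised to a common effective library size (TMM) unless they are called reads. Lats1 had 5847 ± 152 normalised counts in control (SD, n = 3), 2116 ± 207 in LATS1/2-KO and 1870 ± 176 in LATS1/2-Sox9-KO, and was lower in LATS1/2-KO than in control (edgeR adjusted p = 7.07e-06). Lats2 stood at 1041 ± 177, 1471 ± 236 and 1592 ± 359, and the difference between LATS1/2-KO and control missed the threshold (edgeR adjusted p = 0.0571). Sox9 was at 9715 ± 2620 in LATS1/2-KO and 7343 ± 1281 in LATS1/2-Sox9-KO, a difference within the spread between libraries (log2 fold change −0.40 ± 0.19 (SE), edgeR adjusted p = 0.250), and the LATS1/2-KO level was lower than the control level of 21598 ± 1683 (edgeR adjusted p = 0.000682). Whole-gene counts include transcripts that have lost only the floxed exons, so they neither show nor deny recombination. The groups are therefore called by their labels throughout.

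Libraries of a group were not equally alike. On a log2 CPM scale (CPM, counts scaled to a library of 1000000), LATS1/2-KO replicates 2 and 3 correlated at 0.981 across genes, whereas replicate 1 correlated with them at 0.957 and 0.960. Among the LATS1/2-Sox9-KO libraries, replicates 2 and 3 correlated at 0.988 and replicate 1 with them at 0.981 and 0.980. Calls between the deletion groups that turned on either replicate 1 are given with and without it.

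The set was mixed in kind. Protein-coding genes made up 57 of the 78, or 73.1%, against 75.1% of the 19333 tested genes that the annotation holds. The other 21 comprised 10 lincRNAs, 4 antisense RNAs, 3 pseudogenes and 4 transcripts of other kinds. By known roles, which were assigned by hand with the values in view, the members fell into 6 genes of squamous epithelium, 8 of nerve and neuroendocrine cells, 11 secreted or matrix proteins, 7 receptors or membrane proteins, 6 enzymes, 7 genes of cilia, germ cells or genome upkeep, 8 other intracellular proteins and 25 non-coding or unnamed loci. Because the groups were made with the values in view, counts of calls within them are descriptions. The median member had 2479 exonic bases, against 3454 for all tested genes.

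Silence in control was near complete. Together the 78 genes drew 42, 52 and 46 reads from the 3 control libraries, or 0.894, 1.11 and 1.04 CPM. In the LATS1/2-KO libraries they drew 18761, 18508 and 16499 reads, or 371, 300 and 288 CPM. Over all 19357 tested genes, 17.1% were called higher and 17.5% lower in LATS1/2-KO than in control, 34.6% in either direction, and nothing is read from the members' own difference here. For 28 members no control library held a read. Against the floor that 3 reads in the shallowest control library allow, their LATS1/2-KO level was at least 12.2-fold to at least 247-fold higher, with the upper end reached by Prss27. The other 50 had at least 1 control read, and their ratios of summed reads, corrected for the effective library sizes, ran from 17.2 to 3676. The largest belonged to Dsg3, with 2 control reads in all and an exact 95% interval of 1017 to 30358. These intervals and floors cover counting error only.

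Levels in LATS1/2-KO spanned a wide range and were mostly low. The mean normalised count ran from 36.5 for Trex2 to 2927 for Dsg3, with a median of 101. Per kilobase of exon, the scale on which genes can be set against each other, the highest members were the non-coding RNA Eprn at 770, the protease gene Prss27 at 736 and the ribonuclease gene Ang2 at 623, followed by Dsg3 at 419 and Uchl1 at 402. The lowest was the long locus A830018L16Rik at 4.48. Replicate spread was large, with a median coefficient of variation of 37.1% over the LATS1/2-KO libraries against 21.3% for all tested genes. Poln (4.70%) and Cpa4 were the steadiest, and Serpina3i (107%), Stmn2 and Loxl2 the least steady, all 3 of the latter through a high value in replicate 1.

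**Figure D1:**
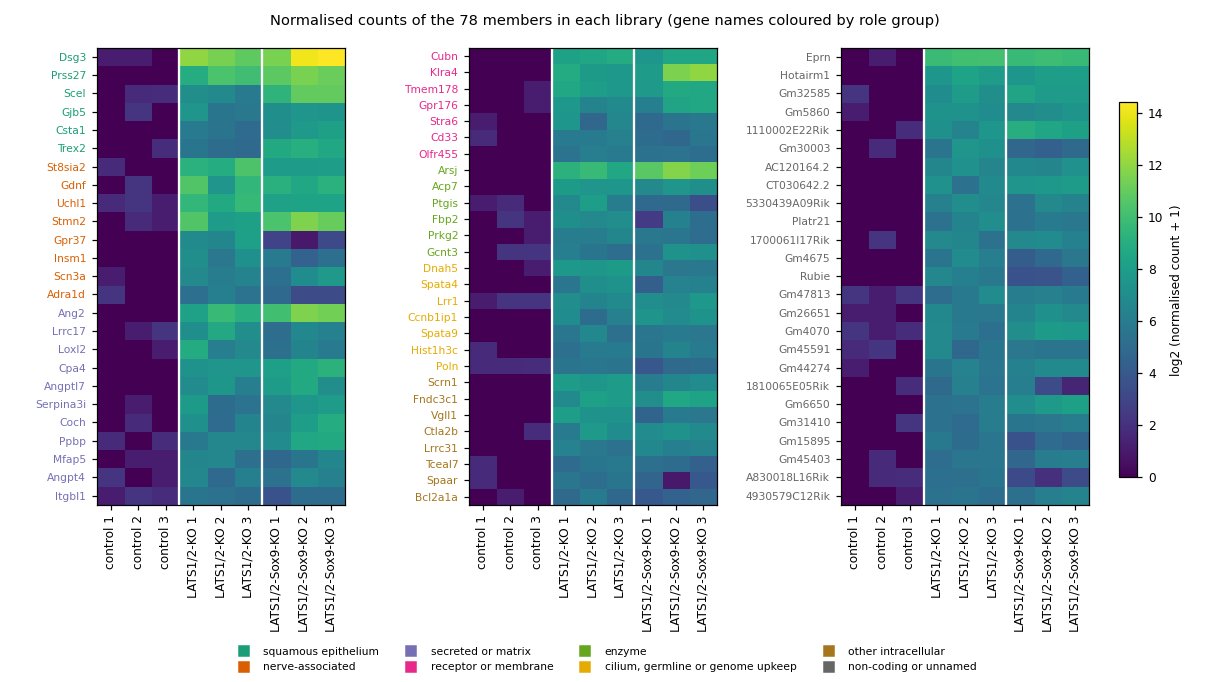
Heat map of log2 (normalised count + 1) for the 78 members (rows) in the 9 libraries (columns), with gene names coloured by role group and ordered by LATS1/2-KO level within each group. All members are dark in the 3 control libraries, and in the LATS1/2-Sox9-KO columns Dsg3 and Scel are brighter than in LATS1/2-KO while Gpr37 and A830018L16Rik are close to the control shade.

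Some genes missed the limits narrowly. Gdnf, Uchl1, Lrrc17 and Fbp2 each reached 3 reads in a control library and were kept. Crct1, a gene of the cornified cell layer, had 0, 4 and 0 control reads and 4642, 2629 and 2371 LATS1/2-KO reads and was left out by a single read, as were Bst1, Ddah1 and Serpina3n with a control maximum of 4. At the other limit, Stra6 and Bcl2a1a entered with 30 reads in their lowest LATS1/2-KO library, and Tceal7 and Trex2 with 32. Lemd1, Unc5c and Vmn1r40 with 29 and Megf10 with 28 stayed out.

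Promoters were inspected for letters that the members might share. RefSeq sequences (GRCm38.p6, 250 bases before to 50 after the transcript start) were found for 53 members, some with several starts, giving 60 promoters. The letters GGAATG, the core of the TEAD site, occurred on either strand in 20% of them, against 12.7% of the promoters of tested genes and 14.7% of all promoters. TGANTCA, the AP-1 site with N for any base, occurred on either strand in 13.3%, against 5.81% and 7.81%. On either strand, AACAAT, a core bound by SOX factors, occurred in 10% (6.2% and 10.7%), ACAAAG in 16.7% (14.5% and 18.7%), and TATAAA on the coding strand in 11.7% (4.86% and 8.32%). The share over all promoters also covers genes that are not read in these cells. Member promoters were poor in CpG, with a median of 6 per 300 bases against 19 for tested genes and 7 for all promoters, and 30% of them held at least 10 CpGs against 72.6% and 43.5%. The shares are descriptions of these windows, and a match is not a bound site.

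Promoters are shown for 4 of the members that differed between the deletion groups and hold a GGAATG or a TGANTCA. Csta1, which was higher in LATS1/2-Sox9-KO, also holds a GGAATG match and is not shown. Every GGAATG (or CATTCC on the other strand) and TGANTCA is in capitals, 5′ to 3′ along the gene. No GGAATG overlaps a TGANTCA in these 4. The promoters of Gpr37, St8sia2, Uchl1, Rubie and Arsj, which also differed, hold neither. Trex2 lies at chrX:73435294-73435593 (minus strand), Scel at chr14:103513091-103513390 (plus), Vgll1 at chrX:57087856-57088155 (plus) and Dnah5 at chr15:28203516-28203815 (plus).
Trex2: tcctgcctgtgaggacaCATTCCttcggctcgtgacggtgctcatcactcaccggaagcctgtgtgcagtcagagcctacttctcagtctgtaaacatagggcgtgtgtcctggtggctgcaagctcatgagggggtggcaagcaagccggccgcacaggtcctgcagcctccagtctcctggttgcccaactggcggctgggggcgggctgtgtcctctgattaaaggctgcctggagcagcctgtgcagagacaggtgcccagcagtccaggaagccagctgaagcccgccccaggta
Scel: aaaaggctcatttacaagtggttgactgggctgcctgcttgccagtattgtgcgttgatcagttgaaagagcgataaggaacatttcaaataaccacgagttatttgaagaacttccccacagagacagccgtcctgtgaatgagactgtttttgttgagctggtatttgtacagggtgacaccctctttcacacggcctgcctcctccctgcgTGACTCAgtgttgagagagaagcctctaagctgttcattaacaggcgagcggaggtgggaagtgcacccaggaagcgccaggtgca
Vgll1: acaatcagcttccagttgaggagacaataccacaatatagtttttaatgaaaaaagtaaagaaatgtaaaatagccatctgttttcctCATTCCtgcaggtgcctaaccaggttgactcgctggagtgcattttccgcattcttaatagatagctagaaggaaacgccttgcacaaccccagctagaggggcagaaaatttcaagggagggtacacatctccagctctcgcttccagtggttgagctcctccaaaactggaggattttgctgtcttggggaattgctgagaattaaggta
Dnah5: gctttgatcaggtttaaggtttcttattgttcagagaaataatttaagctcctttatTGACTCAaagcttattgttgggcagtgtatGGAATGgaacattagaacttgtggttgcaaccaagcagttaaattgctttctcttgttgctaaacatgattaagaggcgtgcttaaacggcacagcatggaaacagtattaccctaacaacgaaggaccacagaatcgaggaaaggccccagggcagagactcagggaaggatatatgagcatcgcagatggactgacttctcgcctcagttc
The TGACTCA of Scel starts 36 bases before the transcript start, and the Trex2 match starts 233 bases before it. In Vgll1 the match starts 162 bases before the start, and in Dnah5 the GGAATG starts 163 and the TGACTCA 193 bases before it. The first 2 genes were higher and the last 2 lower in LATS1/2-Sox9-KO, a balance that follows from the choice of genes shown.

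Most members stayed on in the LATS1/2-Sox9-KO libraries. There, 58 of the 78 had at least 30 reads in each library, whereas this held for 0.383% of the 32598 genes with at most 3 reads in every control library and for 25.8% of all genes counted. Unlike the members, these wider sets were not chosen for reads in LATS1/2-KO, so the contrast does not measure how much was kept. The remaining 20 members fell below 30 reads in at least 1 library, and 5 did so in every library. None had returned to 3 or fewer reads in all 3 libraries, although Gpr37, A830018L16Rik, Spaar and 1810065E05Rik, 4 members named after their values were seen, did so in at least 1. The median over members of the mean normalised count was 104 in LATS1/2-Sox9-KO and 101 in LATS1/2-KO.

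The median hid changes in both directions. In edgeR's quasi-likelihood test over all 19357 genes tested (all 78 members passed its filter on low counts), a call needed an adjusted p of at most 0.05 and a log2 fold change beyond 1. By this rule 8 members were lower in LATS1/2-Sox9-KO than in LATS1/2-KO, which is 10.3% against 2.16% of all tested genes, and 5 were higher, 6.41% against 1.55%. Calls in either direction made up 3.71% of all tested genes. Among the 10558 tested genes whose LATS1/2-KO mean lay within the members' range, 3.33% were lower and 1.94% higher. Lower were Gpr37, Ptgis, A830018L16Rik, Rubie, Vgll1, St8sia2, Dnah5 and Uchl1, and higher were Scel, Trex2, Csta1, Gm6650 and Arsj. Medians were close to 0, −0.08 on the log2 scale for members and −0.02 for all tested genes, but 47.4% of the members differed by more than 1 on the log2 scale, against 14.8% of all tested genes. Requiring 30 reads in every LATS1/2-KO library favours genes that happen to be high there, and so favours lower values elsewhere. Among the 27 members with at least 100 reads in every LATS1/2-KO library, 5 were lower and 1 was higher. This split tightens the same limit that chose the set, so nothing is read from it.

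Every LATS1/2-Sox9-KO library lay below every LATS1/2-KO library for 21 members, 26.9% against 13.3% of all tested genes. Every one lay above for 13 members, 16.7% against 14.6%, a share near the background. For the other 44 the groups overlapped. The read limit that chose the members bounds their lowest LATS1/2-KO library from below, which favours separation downward. The tested genes met no such limit, so nothing is read from the contrast of 26.9% with 13.3%. LATS1/2-Sox9-KO replicate 1 was the lowest of its group for 51 members, 65.4% against 41.0% of all tested genes. Without it, the test called 10 members higher and 2 lower, and of all 20179 genes tested in that fit 224 higher and 222 lower. Of the 8 lower genes, Gpr37 and Dnah5 kept their call, and 6 lost it, with edgeR adjusted p-values of 0.0662 for Vgll1, 0.0963 for Ptgis, 0.104 for Rubie, 0.114 for St8sia2, 0.122 for Uchl1 and 0.127 for A830018L16Rik. Their log2 fold changes stayed between −2.87 and −0.98. Dnah5, Csta1 and Gm6650 each lost their call without replicate 2 or 3 of either deletion group, and Arsj without LATS1/2-KO replicate 3 or LATS1/2-Sox9-KO replicate 2. As each of the 9 libraries was left out in turn, the counts of members ranged from 2 to 10 higher and from 1 to 8 lower. Over all tested genes they ranged from 121 to 497 higher and from 78 to 582 lower. The smallest counts of members were 1 lower and 2 higher without LATS1/2-Sox9-KO replicate 2, 1 and 3 without its replicate 3, and 2 and 2 without LATS1/2-KO replicate 3. The count of members lower was 3 without LATS1/2-KO replicate 2 and 4 without control replicate 2, and the count higher was 8 without LATS1/2-KO replicate 1 or control replicate 3.

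**Figure D2:**
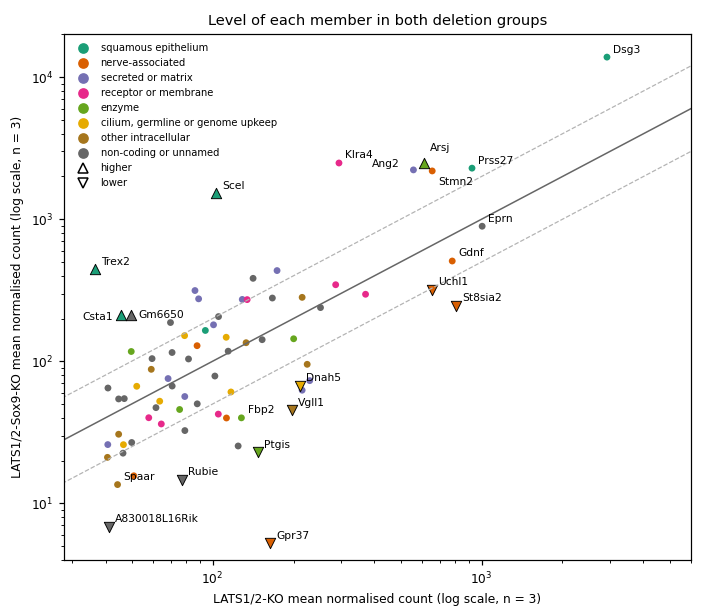
Mean normalised count of each member in LATS1/2-KO (x axis) and LATS1/2-Sox9-KO (y axis), both on log scales, n = 3 libraries per group, with triangles for called members, a solid line at equality and dashed lines at a 2-fold difference. Dsg3 lies at the top right, Scel and Trex2 far above the upper dashed line, and Gpr37 far below the lower one.

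**Figure D3:**
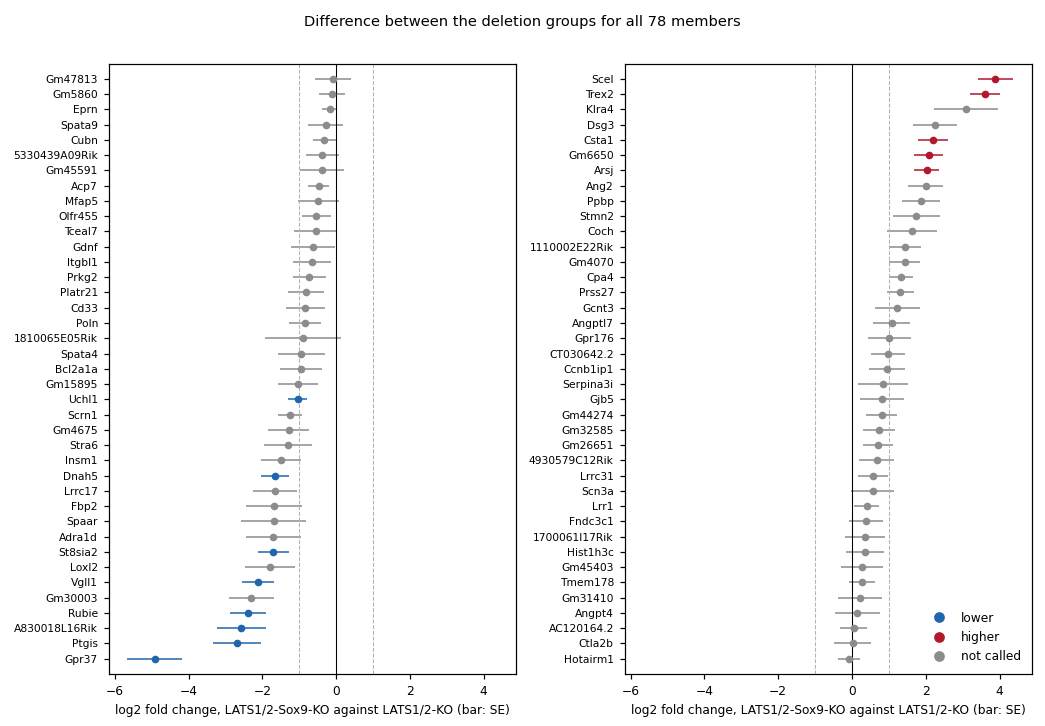
Log2 fold change of LATS1/2-Sox9-KO against LATS1/2-KO for all 78 members with its standard error, ordered by size over both panels, with called members in colour and dashed lines at 1 and −1. Values run from −4.92 for Gpr37 to 3.89 for Scel, and several uncalled members beyond the dashed lines have long bars.

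Among the 6 genes of squamous epithelium, a group assigned with the values in view, 3 were called higher in LATS1/2-Sox9-KO, against 1.55% of all tested genes. The log2 fold changes of all 6 were positive (median 2.22). The count called higher was 2 to 4 as each library was left out and 5 with DESeq2. Scel encodes sciellin, a precursor of the cornified envelope that toughens squamous cells. It measured 138, 108 and 62.9 normalised counts in LATS1/2-KO replicates 1, 2 and 3 and 657, 1979 and 1941 in LATS1/2-Sox9-KO, so the groups were far apart, 14.8-fold in the means (log2 fold change 3.89 ± 0.48 (SE), edgeR adjusted p = 0.00416). Trex2, a DNA exonuclease known from keratinocytes, was near its entry limit in LATS1/2-KO with 47.1, 33.0 and 29.2 and reached 434, 522 and 378 in LATS1/2-Sox9-KO (3.61 ± 0.41, edgeR adjusted p = 0.00295). These 2 kept their call in all 17 alternative fits.

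Csta1, a stefin family inhibitor of cysteine proteases, measured 59.2, 45.8 and 31.9 against 134, 210 and 288 (log2 fold change 2.21 ± 0.41 (SE), edgeR adjusted p = 0.0232). Its groups did not overlap, although the call held in only 11 of 17 alternative fits. Stefin genes are near-identical copies that can share reads. The neighbouring 2010005H15Rik, of the same family, stood at a mean of 7.30 and 37.6 in the same groups.

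Dsg3 is the desmosomal cadherin desmoglein 3, which holds basal and squamous cells together. Its LATS1/2-KO libraries had 4189, 2812 and 1780 normalised counts and its LATS1/2-Sox9-KO libraries 2846, 17176 and 21544. Replicate 1 of the latter lay inside the LATS1/2-KO range and the other 2 far above it. The difference missed the threshold with all libraries (log2 fold change 2.24 ± 0.60 (SE), edgeR adjusted p = 0.0542) and passed it without that replicate (2.75 ± 0.30, edgeR adjusted p = 0.00481). Dsg2, the desmoglein of simple epithelia, was abundant in every group, at 27920 in LATS1/2-KO and 35298 in LATS1/2-Sox9-KO, whereas Dsg4 reached only 30.3 and 20.2.

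Prss27, a membrane-anchored serine protease of squamous epithelium, had 472, 1297 and 996 normalised counts in LATS1/2-KO and 1753, 2875 and 2241 in LATS1/2-Sox9-KO, without overlap and not called (log2 fold change 1.31 ± 0.36 (SE), edgeR adjusted p = 0.0723). Gjb5 encodes connexin 31.1, a gap junction protein of skin, and its values of 183, 46.6 and 52.9 overlapped 144, 178 and 172 (0.81 ± 0.60).

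Marker lists for other epithelia were read beside these genes. A list of 10 epidermal keratinocyte genes, 9 of them found, summed to 26.2, 28.2 and 56.9 CPM in control, 75, 550 and 218 in LATS1/2-KO and 309, 286 and 177 in LATS1/2-Sox9-KO. Its most abundant gene was Sbsn, Flg was at 0 in all 3 groups, Krtdap, Dsc1 and Dsg1a were at 0 in control, and 0 of its 5 tested genes were called between the deletion groups. Between LATS1/2-KO and control, Sbsn was higher (log2 fold change 3.20) and Krt1 (−4.31) and Ivl were lower. Ivl had 6, 22 and 412 raw counts in control against 0, 0 and 1 in LATS1/2-KO, with most of the control counts in replicate 3. The basal and myoepithelial list, led by Krt14, summed to 450, 531 and 502, then 5533, 3338 and 3249, then 2979, 5284 and 7308 CPM. Krt14 itself went from a mean of 672 normalised counts in control to 177575 in LATS1/2-KO. Of the 12 genes, 6 were higher in LATS1/2-KO than in control and 4 lower, namely Trp63 (log2 fold change −4.82), Myh11 (−2.22), Mylk (−1.95) and Itga6 (−1.04), and Krt5 was not called (0.06). In LATS1/2-Sox9-KO, 1 was higher and 3 were lower than in LATS1/2-KO. Like Dsg3, the sum was lowest in replicate 1 of the former. In sorted bulk samples, more cells of a type and more RNA per cell cannot be told apart, and the part of these markers in the values above was not tested.

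**Figure D4:**
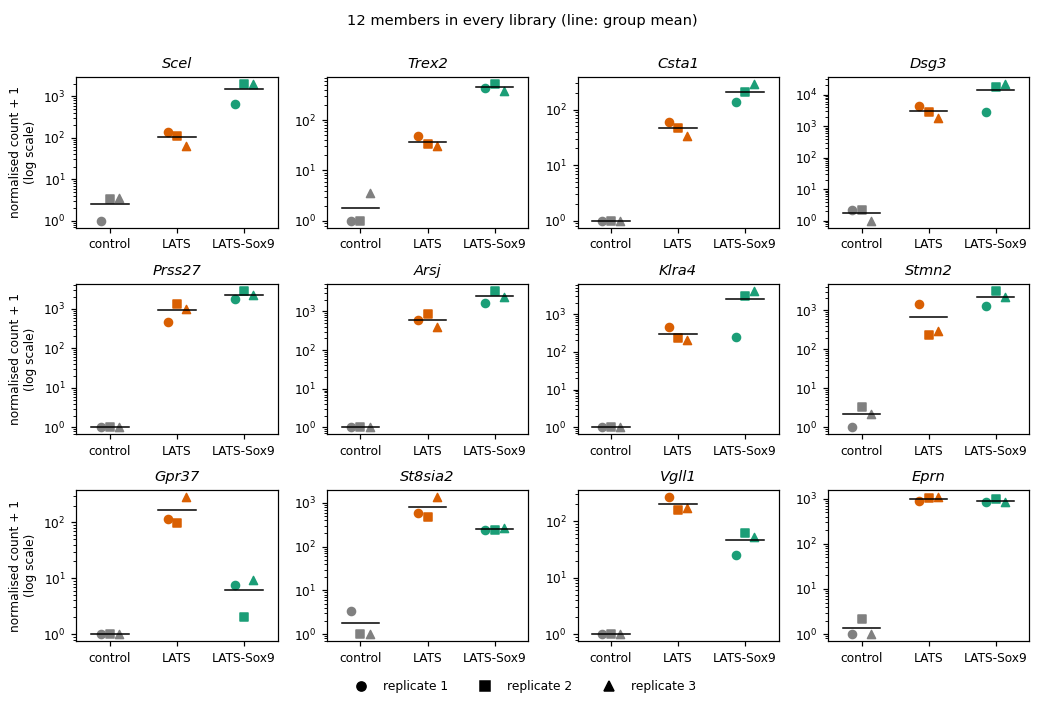
Normalised count + 1 (log scale) of 12 members in each of the 9 libraries, with 1 panel per gene, a symbol per replicate number and a line at the group mean. Scel and Trex2 are higher in all LATS1/2-Sox9-KO libraries, Gpr37, St8sia2 and Vgll1 are lower in all 3, Eprn is level, and Klra4 and Dsg3 have a low replicate 1.

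Of 8 nerve-associated genes, 3 were called lower in LATS1/2-Sox9-KO and 0 higher, against 2.16% and 1.55% of all tested genes. The log2 fold changes of 6 were negative, and the median was −1.27. The count lower was 1 to 3 as each library was left out and 1 with the replicate number as a block. Gpr37, an orphan receptor known from the brain and its myelinating glia, was the member with the lowest log2 fold change of the whole set. It had 115, 95.7 and 280 normalised counts in LATS1/2-KO and 6.5, 0.996 and 8.20 in LATS1/2-Sox9-KO, which is 3.20% of the former mean (log2 fold change −4.92 ± 0.74 (SE), edgeR adjusted p = 0.0133). It was called in 16 of 17 alternative fits, the exception being a test against a 2-fold minimum. Without LATS1/2-KO replicate 3 its log2 fold change was −4.29.

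St8sia2, which builds the polysialic acid carried by neural adhesion molecules, measured 581, 484 and 1342 against 244, 236 and 260 (log2 fold change −1.70 ± 0.41 (SE), edgeR adjusted p = 0.0405). The LATS1/2-KO spread came from replicate 3, and without that library the value was −1.11 and not called. The call was also lost without LATS1/2-Sox9-KO replicate 1 (−1.67, edgeR adjusted p = 0.114) and held in 10 of 17 alternative fits. Uchl1, the neuronal deubiquitinase also known as PGP9.5, went from 728, 430 and 809 to 306, 320 and 330, without overlap (−1.04 ± 0.25, edgeR adjusted p = 0.0415). Its fold change is close to the minimum of the rule, and the call held in 7 of 17 alternative fits. It was lost without LATS1/2-KO replicate 1 (−0.96, edgeR adjusted p = 0.0605) and without replicate 1 of LATS1/2-Sox9-KO (−0.98, edgeR adjusted p = 0.122). Both genes therefore kept a substantial level, 30.7% and 48.6% of LATS1/2-KO.

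Stmn2 regulates microtubules in growing axons and was the nerve gene with the highest LATS1/2-Sox9-KO level. Its LATS1/2-KO values of 1444, 236 and 287 were split by replicate 1, and its LATS1/2-Sox9-KO values were 1271, 3171 and 2124. With all libraries it was not called (log2 fold change 1.74 ± 0.64 (SE), edgeR adjusted p = 0.139), and without LATS1/2-KO replicate 1 it was (3.07 ± 0.39, edgeR adjusted p = 0.00464). Gdnf, the neurotrophic ligand of the RET receptor complex, had 1421, 183 and 731 against 557, 382 and 586, fully overlapping.

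The remaining nerve genes were lowly expressed and uncalled. Insm1, a transcription factor of neuroendocrine cells, had 138, 50.8 and 149 against 60.3, 21.9 and 37.3. Adra1d, an adrenergic receptor, had 37.1, 72.9 and 42.9 against 28.8, 8.97 and 9.11. Scn3a, a voltage-gated sodium channel, had 108, 67.8 and 86.6 against 37.1, 130 and 220. Of these 3, only Adra1d was without overlap. The list of 10 neuron and Schwann cell markers summed to 161, 157 and 90.2 CPM in control, 120, 157 and 163 in LATS1/2-KO and 148, 158 and 150 in LATS1/2-Sox9-KO, led by Mbp. Elavl4 was at 0 in all groups, Ngfr and Rbfox3 in LATS1/2-KO and Snap25 in control and LATS1/2-Sox9-KO, and 0 of the 5 tested genes were called between the deletion groups.

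Secreted and matrix genes were split, 7 with positive and 4 with negative log2 fold changes, and 0 of 11 were called, against 3.71% of all tested genes. Ang2 here is an angiogenin, a secreted ribonuclease, and not angiopoietin. It had no control read, 299, 863 and 513 normalised counts in LATS1/2-KO and 1034, 3083 and 2561 in LATS1/2-Sox9-KO, without overlap (log2 fold change 1.99 ± 0.48 (SE), edgeR adjusted p = 0.0521). Without LATS1/2-Sox9-KO replicate 1 it was called (2.36, edgeR adjusted p = 0.0306). Its relative Ang had 53 control reads and stayed at 39.6 and 47.9.

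Cpa4, a carboxypeptidase, was steady in LATS1/2-KO at 163, 178 and 180 and measured 273, 420 and 613 in LATS1/2-Sox9-KO, again without overlap, and narrowly missed the threshold (log2 fold change 1.32 ± 0.32 (SE), edgeR adjusted p = 0.0506). Ppbp, a CXC chemokine of platelets, had 55.2, 102 and 101 against 121, 396 and 428 (1.87 ± 0.52, edgeR adjusted p = 0.0622). Both were called without LATS1/2-Sox9-KO replicate 1. Coch, a matrix protein of the inner ear, had 146, 31.3 and 88.5 against 93.8, 259 and 473, and Angptl7, an angiopoietin-like secreted protein, 124, 192 and 70.2 against 249, 431 and 138, both with overlap.

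The 4 negative values, all uncalled, belonged to Loxl2, Lrrc17, Mfap5 and Itgbl1. Loxl2, a lysyl oxidase that crosslinks collagen, had 464, 71.2 and 110 in LATS1/2-KO and 38.1, 87.7 and 61.9 in LATS1/2-Sox9-KO, with overlap and with LATS1/2-KO replicate 1 far above the rest. Lrrc17, a secreted leucine-rich repeat protein, had 141, 410 and 138 against 34.3, 106 and 79.2, without overlap (log2 fold change −1.65 ± 0.60 (SE), edgeR adjusted p = 0.134). Mfap5, a microfibril protein, and Itgbl1, an integrin-like secreted protein, kept 71.6% and 63.5% of their LATS1/2-KO means. Fibroblast markers, of which Mfap5 is 1 of 14, summed to 427, 367.7 and 195 CPM in LATS1/2-KO, 98.9, 186 and 244 in LATS1/2-Sox9-KO and 51.3, 88.8 and 182 in control. Of the 14, 8 were higher and 1, Dcn, was lower in LATS1/2-KO than in control by the edgeR test, with a median log2 fold change of 2.23, the direction that the members were chosen for. The most abundant was Postn (log2 fold change 5.49), none of the list was at 0, and the part of fibroblasts in these values was not tested.

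Serpina3i belongs to a cluster of near-identical protease inhibitor genes that can share reads, so its values are uncertain. It had 226, 33.0 and 43.8 normalised counts in LATS1/2-KO and 110, 186 and 246 in LATS1/2-Sox9-KO, and it was called higher only without LATS1/2-KO replicate 1 (log2 fold change 2.23). The neighbouring Serpina3n had 409, 2663 and 1750 against 92.8, 607 and 560, a negative log2 fold change that was also not called. Angpt4, an angiopoietin ligand of the TEK receptor, had overlapping values in the range of 28.8 to 107.

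Among receptors and membrane proteins 0 of 7 were called, against 3.71% of all tested genes, and Klra4 had the largest difference. It belongs to the Ly49 receptors of natural killer cells, another family of near-identical copies. No control library held a read, LATS1/2-KO had 454, 231 and 200 normalised counts, and LATS1/2-Sox9-KO had 252, 3058 and 4158. Replicate 1 lay within the LATS1/2-KO range and the other 2 far above it. The test gave 3.08 ± 0.87 (log2 fold change, SE; edgeR adjusted p = 0.0792) with all libraries and 3.64 ± 0.37 (edgeR adjusted p = 0.00732) without that replicate. Klra8 was low in the same replicate, with 45.5, 280 and 329 in LATS1/2-Sox9-KO. Leukocyte markers summed to 22.7, 17.2 and 15.1 CPM in control, 90.5, 61.7 and 41.4 in LATS1/2-KO and 64.5, 69.0 and 91.5 in LATS1/2-Sox9-KO. Their most abundant gene, Csf1r, was the only 1 of 9 tested that was called between control and LATS1/2-KO (log2 fold change 3.87). Cd3e and Ms4a1 were at 0 in every library. The natural killer marker Nkg7 had 0, 2 and 5 reads in control, 0 in every LATS1/2-KO library and 6, 2 and 4 in LATS1/2-Sox9-KO. The part of leukocytes in the Klra4 values was not tested.

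Cubn, the endocytic receptor cubilin, had 302, 348 and 461 in LATS1/2-KO and 188, 352 and 350 in LATS1/2-Sox9-KO (log2 fold change −0.32 ± 0.31). Tmem178, a membrane protein, had 386, 270 and 204 against 222, 431 and 384. Gpr176, an orphan receptor, had 206, 84.7 and 113 against 74.3, 344 and 397, again with a low replicate 1 in the second group. Stra6, the receptor for retinol-binding protein, had 188, 25.4 and 102 against 29.7, 44.8 and 52.8. Cd33, a sialic acid-binding lectin of myeloid cells, and Olfr455, an olfactory receptor, were low and without overlap, at 56.1% and 69.1% of LATS1/2-KO.

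Enzymes gave 1 call in each direction among 6 genes, against 2.16% lower and 1.55% higher of all tested genes. Arsj, a member of the arylsulfatase family, had no control read, 606, 842 and 386 normalised counts in LATS1/2-KO and 1675, 3412 and 2379 in LATS1/2-Sox9-KO, so that every library of the latter was higher (log2 fold change 2.02 ± 0.35 (SE), edgeR adjusted p = 0.0182, called in 14 of 17 alternative fits). Ptgis, prostacyclin synthase, had 110, 269 and 63.8 against 28.8, 29.9 and 10.02 and was lower (−2.69 ± 0.65, edgeR adjusted p = 0.0405, called in 9 of 17). Without LATS1/2-KO replicate 2 the Ptgis value was −1.89 and not called (edgeR adjusted p = 0.140). Fbp2, the muscle fructose bisphosphatase, had 142, 108 and 133 in LATS1/2-KO and 4.64, 79.7 and 35.5 in LATS1/2-Sox9-KO, without overlap and not called. The acid phosphatase Acp7 kept 71.9% and the cGMP-dependent kinase Prkg2 60.7% of their LATS1/2-KO means. The mucin glycosyltransferase Gcnt3 had 69.2, 46.6 and 33.7 against 42.7, 159 and 149.

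Of 7 genes of cilia, germ cells and genome upkeep, 1 was called lower, against 2.16% of all tested genes. Dnah5, a dynein heavy chain of motile cilia, was among the steadiest members in LATS1/2-KO with 205, 199 and 230 and fell to 95.6, 51.8 and 53.7 in LATS1/2-Sox9-KO (log2 fold change −1.65 ± 0.38 (SE), edgeR adjusted p = 0.0339). Its call held in 11 of 17 alternative fits. Spata4 and Spata9, spermatogenesis-associated genes, had no control read and kept 51.9% and 82.3% of their means. Ccnb1ip1, a ligase of meiotic crossing over, kept 193%, and the replication-linked Lrr1 131%. Hist1h3c, 1 of many near-identical histone H3 genes, had 52.2 and 66.7. The DNA polymerase gene Poln, at 46.6 and 25.9, overlaps an exon of Haus3 on the same strand, which had 461 normalised counts in control.

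Vgll1, a cofactor that binds TEAD factors in place of YAP and TAZ, was the called member among the other intracellular proteins. It had no control read, 265, 159 and 169 normalised counts in LATS1/2-KO and 24.1, 59.8 and 51.9 in LATS1/2-Sox9-KO, where it kept 22.9% of its mean (log2 fold change −2.12 ± 0.43 (SE), edgeR adjusted p = 0.0307, called in 10 of 17 alternative fits). Scrn1, secernin 1, had 239, 193 and 243 against 64.1, 97.7 and 124, without overlap and uncalled (−1.24 ± 0.33, edgeR adjusted p = 0.0651). Its exons overlap those of Wipf3 on the other strand, and since the library kit does not mark strand, reads of the overlap cannot be assigned. Wipf3 had a mean of 616 in control, 39.1 in LATS1/2-KO and 9.91 in LATS1/2-Sox9-KO.

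The other members of this group were not called. Fndc3c1, a fibronectin domain protein, had 117, 291 and 237 against 136, 378 and 332. Ctla2b, a cysteine protease inhibitor of activated T cells, was level at 133 and 135, beside its near copy Ctla2a at 1375 and 2134. Bcl2a1a, an antiapoptotic BCL2 relative with near-identical copies, had 40.7 and 21.1. Tceal7 stood at 44.8 and 30.6, and overlaps Bex1, which had 15178 and 10609 normalised counts on the other strand. Lrrc31 kept 148% and Spaar, a micropeptide of the lysosome, 30.6% of its LATS1/2-KO mean.

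Non-coding and unnamed loci made up 25 members, of which 2 were called lower and 1 higher, against 2.16% and 1.55% of all tested genes. Their log2 fold changes had a median of −0.08. Eprn, the member with the highest level per kilobase, differed little, with 907, 1035 and 1075 normalised counts in LATS1/2-KO and 838, 976 and 865 in LATS1/2-Sox9-KO (log2 fold change −0.17 ± 0.20). Hotairm1, an antisense RNA, had 191, 325 and 241 against 185, 271 and 261, also level (−0.08 ± 0.29). Rubie, a long RNA known from the inner ear, had 102, 72.0 and 56.5 against 11.1, 11.96 and 20.9 (−2.38 ± 0.49, edgeR adjusted p = 0.0317). This call held in 10 of 17 alternative fits and was lost without LATS1/2-Sox9-KO replicate 1 (−2.18, edgeR adjusted p = 0.104). A830018L16Rik kept 16.6% (−2.57 ± 0.66, edgeR adjusted p = 0.0490, called in 6 of 16 alternative fits), and its nearest coding gene, Prex2, 110 kilobases away, was lower as well (−2.52, edgeR adjusted p = 0.00140). The pseudogene Gm6650 went from 40.1, 44.1 and 64.8 to 131, 212 and 289 (2.08 ± 0.40, edgeR adjusted p = 0.0254). The unnamed coding locus Gm4070 was not called by edgeR with all libraries (1.43, edgeR adjusted p = 0.0749), and was called higher without LATS1/2-KO replicate 1 (1.89, edgeR adjusted p = 0.0232) and by DESeq2 with all libraries.

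Several non-coding members share exon sequence with coding genes on the other strand, and such reads cannot be told apart without strand. Gm30003 had 45.1, 179 and 150 against 26.0, 19.9 and 30.1, was not called with all libraries (log2 fold change −2.29 ± 0.61 (SE), edgeR adjusted p = 0.0558) and was lower without LATS1/2-KO replicate 1 (−2.69, edgeR adjusted p = 0.0136). It overlaps the elastin gene Eln, which was lower in LATS1/2-Sox9-KO (log2 fold change −1.79, edgeR adjusted p = 0.0141). Gm4675 had 46.1, 120 and 70.2 against 17.6, 28.9 and 51.0, with overlap, and was not called (−1.28, edgeR adjusted p = 0.224). It overlaps Sox21, which was lower in LATS1/2-Sox9-KO (−1.36, edgeR adjusted p = 0.0315). Gm15895 overlaps Il34, a ligand of the CSF1 receptor that stood at 34.5 normalised counts in control, 1524 in LATS1/2-KO and 1018 in LATS1/2-Sox9-KO. Spata4 and its antisense RNA 5330439A09Rik, both members, overlap each other, with 117 and 102 in LATS1/2-KO and 60.8 and 78.7 in LATS1/2-Sox9-KO.

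For context within the pathway, a list of 22 YAP/TAZ target genes, which holds Lats2 and no member, was read in the same libraries. Of 21 tested, 14 were higher in LATS1/2-KO than in control and 5 lower, against 17.1% and 17.5% of all tested genes, and 0 were called between the deletion groups. Ankrd1, a widely used target, rose from 24.1 normalised counts in control to 20134 in LATS1/2-KO (log2 fold change 9.70 ± 0.35 (SE), edgeR adjusted p = 1.48e-07) and stood at 21468 in LATS1/2-Sox9-KO. Ccn2, a secreted matricellular target, went from 1137 to 146270 and 85971. F3, Gadd45a, Dock5, Arhgef17 and Rbms3 were the 5 lower ones. All but Foxf2 had at least 16 reads in every control library and so missed the limit of silence. Foxf2 had no control read and a mean of 4.47 normalised counts in LATS1/2-KO.

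Markers of the remaining cell types were read in the same libraries. Luminal markers, led by Krt18, summed to 22539 to 24734 CPM in control, 20673 to 21172 in LATS1/2-KO and 27204 to 30794 in LATS1/2-Sox9-KO. Within the list of 15, however, 6 genes were lower in LATS1/2-KO than in control and 0 higher. They were Krt19 and the hormone receptor and lineage factor genes Pgr (log2 fold change −5.91), Prlr (−4.81), Foxa1 (−3.56), Esr1 (−3.50) and Gata3 (−2.39). Between the deletion groups, Pgr was lower again in LATS1/2-Sox9-KO (−3.43, edgeR adjusted p = 0.0136).

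Adipocyte markers, led by Fabp4, summed to 5.17, 3.53 and 5.43 CPM in control, 9.68, 80.6 and 35.7 in LATS1/2-KO and 1.53, 27.4 and 22.2 in LATS1/2-Sox9-KO. Of these 7 genes, 6 were higher in LATS1/2-KO than in control, with a median log2 fold change over the list of 6.87, and Lep was at 0 in control. This change ran in the same direction as that of the members, and its part in their values was not tested. Endothelial markers, led by Vwf, summed to 101 to 118, 17.7 to 24.0 and 7.44 to 21.7 CPM in the 3 groups. Vwf alone went from 5133 to 162 normalised counts between control and LATS1/2-KO, whereas the median log2 fold change of the list was 0.39, with Kdr higher and Vwf and Egfl7 lower. Pericyte markers, led by Notch3, summed to 309 to 402, 32.3 to 82.5 and 55.4 to 73.8 CPM, and of 5 tested 1 was higher and 3 were lower in LATS1/2-KO than in control. Skeletal muscle and erythrocyte lists stayed below 3 CPM in all 9 libraries.

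**Figure D5:**
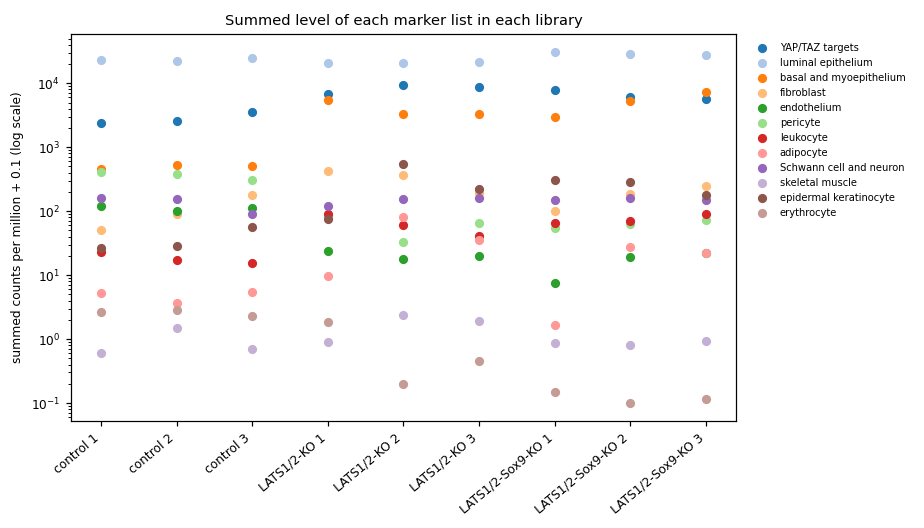
Summed CPM + 0.1 (log scale) of each marker list in each of the 9 libraries, 1 point per list and library. Luminal markers stay near the top in all libraries, the summed basal markers, mostly Krt14, and the summed YAP/TAZ targets lie above control in the deletion groups, and muscle and erythrocyte markers stay near the bottom.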

How the data were processed

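RNA from FACS-sorted EYFP+ mouse mammary cells (9 libraries, TruSeq RNA v2) was aligned by the authors to mm10 with STAR 2.6.0c, and unique proper pairs outside mitochondrial genes were counted per gene with featureCounts (Subread 1.6.2). The deposited table holds raw counts for 55450 Ensembl genes and was used as given. Although the methods describe same-strand counting, the kit does not mark strand, so overlapping genes cannot be separated. The members, the lists, the role groups and the motifs were chosen with earlier results of these data known. Symbols, types, coordinates (mm10) and exon lengths came from GENCODE M21, which holds 99.5% of the gene identifiers.

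Counts were filtered (filterByExpr), scaled by TMM and fitted to all 9 libraries with edgeR 4.0.16 (quasi-likelihood, 1 mean per group) in R 4.3.3, with Benjamini-Hochberg adjustment over 19357 genes. A call needed more than a 2-fold difference at an adjusted p of 0.05 or less. The standard error is the log2 fold change divided by the root of F. Normalised counts are counts scaled to the mean effective library size. Replicates of a group differed by more than sampling noise. The fit was tested on simulated counts. Named genes were the 12 highest per kilobase, the 4 highest of each symbol class, up to 10 called in each direction, the 4 nearest to 0 among well-expressed members, 4 on each side of each limit and the 4 lowest and highest in spread. Other members are named as part of the full account. Alternatives were DESeq2 1.42.0, other scalings and filters, a replicate block and leaving out each library.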

Additional observations from a re-analysis of the deposited data

How the results depend on the processing

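The limits set the size of the set. Allowing 0 reads in control left 28 members, allowing 5 gave 123, and requiring 50 reads in LATS1/2-KO left 43, and leaving out a library gave 88 to 123 (the latter without LATS1/2-KO replicate 1). Members with at least 30 reads in every LATS1/2-Sox9-KO library numbered 60 to 64 when 1 of those libraries was left out. Leaving out a library loosens a condition on every library. The ranges of 88 to 123 and 60 to 64 could therefore not fall below the full counts of 78 and 58. Leaving out each library gave 1 to 8 members lower and 2 to 10 higher, a median log2 fold change of −0.15 to 0.09, and 78 to 582 tested genes lower and 121 to 497 higher. The lowest counts came without LATS1/2-Sox9-KO replicate 2, replicate 3 or LATS1/2-KO replicate 3. DESeq2 called 11 members lower and 13 higher, and 730 tested genes lower and 479 higher. With no filter on low counts 13 members were higher and 8 lower, in a fit of 31546 genes. Over all tested genes, the count higher also rose above the 301 of the filtered fit, and the count lower above its 418. glmTreat against a 2-fold change called 0 members lower and 2 higher, and of all tested genes 14 lower and 18 higher. At an unadjusted p under 0.05 in the edgeR test, 14 members were lower and 15 higher. With more than 1 CPM in at least 3 libraries, 60 members stayed and their median was 0.34. Members low in LATS1/2-KO pass this filter only if they are high in LATS1/2-Sox9-KO. Trex2, with 47, 39 and 32 reads in LATS1/2-KO and 467, 524 and 415 in LATS1/2-Sox9-KO, stayed, whereas A830018L16Rik was removed. The filter itself thus favours a higher median, and nothing is read from the shift. Members with at least 100 reads in every LATS1/2-KO library gave 5 lower and 1 higher, a split on the counts that chose the set, from which nothing is read.

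Same-numbered libraries correlated in their deviations from the group means at −0.07 to 0.17, over 0.1 in 2 of 9 pairs, so the numbers were not taken to pair the libraries. A replicate block left 2 members lower and 6 higher, and 336 lower and 265 higher of all 19357 tested genes. Among the 62 named members, the values that changed sign belonged to 6 that were not called. As each library was left out, Spata9 ran from −0.54 to 0.29, Gdnf from −1.05 to 0.16, Angpt4 from −0.19 to 0.56, Scn3a from −0.051 to 1.03, Ctla2b from −0.33 to 0.55 and Hotairm1 from −0.24 to 0.18, and by upper quartile scaling Ctla2b was at −0.033. Of 1043 fits of 62 named members, 926 kept the direction and the side of the threshold. Most of these members were not called, and staying uncalled counts as kept. Called members lost their call in 70 fits, which belonged to 11 of the 13 called. Chosen after seeing the data, YAP/TAZ targets higher in LATS1/2-KO numbered 13 or 14 in every fit run. The cause of these shifts was not tested. A gene with few reads needs a large difference to be called with 3 libraries per group.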
